A study of Mus musculus with 9 samples.

Results

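The C/EBP transcription factor family was examined in RNA-seq of mouse colon organoids, through the 4 members Cebpa, Cebpb, Cebpd and Cebpg. The members were looked up by symbol among the 48795 Ensembl genes of the deposited table, and all 4 were found and passed the filter on low values, as did 12741 genes in all. The family was chosen by the values of Cebpd with and without FICZ, which were higher with FICZ in AHR KO organoids and not in WT organoids, so Cebpd is described in those comparisons with no test. Crypts from whole colon were grown in Matrigel as organoids, three-dimensional cultures of epithelial cells, in WENR, a medium that supplies Wnt3a, EGF, Noggin and R-spondin. WENR also contained nicotinamide, SB202190 and an inhibitor of ALK5. Per the methods of the study, the mice were on a C57BL/6 background and carried a floxed allele of Ahr (tm1c) that a Villin-driven Cre deletes in intestinal epithelium (AHR KO), or were their wildtype littermates (WT). AHR, the aryl hydrocarbon receptor, is a ligand-activated transcription factor, and FICZ is one of its high-affinity ligands. Organoids of both genotypes received either DMSO or 5 nM FICZ for 4 h. There were 2 libraries of WT with DMSO (replicates 2 and 3) and 3 of WT with FICZ (replicates 1 to 3). For AHR KO, each treatment had 2 libraries (replicates 1 and 3). The age of the mice is not given in the sources used here.

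C/EBP proteins are basic leucine zipper transcription factors that bind DNA as homodimers or as heterodimers with each other and with factors of the ATF family. C/EBPα is best known for halting proliferation and for driving differentiation of fat, liver and myeloid cells, while C/EBPβ and C/EBPδ are induced by cytokines and act in the acute phase response. C/EBPγ lacks an activation domain and mainly acts as a dimer partner, among others of ATF4. In intestinal epithelium, C/EBPβ and C/EBPδ are known as inducers of acute phase genes.

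Cebpa (ENSMUSG00000034957) lies on chromosome 7 from 35119293 to 35121928 on the plus strand of GRCm38 and has a single exon of 2636 bases. Cebpg (ENSMUSG00000056216) lies on the same chromosome from 35046422 to 35056573 on the minus strand, 62.7 kb from Cebpa, with 5621 bases of exon in 3 blocks. Cebpb (ENSMUSG00000056501) lies on chromosome 2 from 167688915 to 167690418 on the plus strand, as a single exon of 1504 bases. Cebpd (ENSMUSG00000071637) lies on chromosome 16 from 15887286 to 15891031 on the plus strand, as a single exon block of 3746 bases in GENCODE M21. The transcripts differ widely in base composition, with a GC content of 67.2% for Cebpb, 62.6% for Cebpa, 51.6% for Cebpd and 43.3% for Cebpg.

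The 250 bases upstream of the RefSeq transcription start were available for Cebpa, Cebpb and Cebpg (RefSeq, GRCm38.p6). They are shown because Cebpa and Cebpb both rose with FICZ in WT (log2 difference 0.27 and 1.24). FICZ is a ligand of AHR, whose binding site has the core GCGTG. Both genes also rose in the libraries labelled AHR KO (0.44 and 0.98). After a correction for GC content and length, described below, they parted in WT (-0.20 and 0.51) and AHR KO (-0.03 and 0.29). Whether AHR acts through these upstream bases was not tested. They are written 5′ to 3′ on the strand of each gene, at chr7:35119043-35119292 (plus) for Cebpa, chr2:167688665-167688914 (plus) for Cebpb and chr7:35056567-35056816 (minus) for Cebpg. Capitals mark every match to GCGTG on either strand, which reads CACGC where the match is on the opposite strand.
Cebpa: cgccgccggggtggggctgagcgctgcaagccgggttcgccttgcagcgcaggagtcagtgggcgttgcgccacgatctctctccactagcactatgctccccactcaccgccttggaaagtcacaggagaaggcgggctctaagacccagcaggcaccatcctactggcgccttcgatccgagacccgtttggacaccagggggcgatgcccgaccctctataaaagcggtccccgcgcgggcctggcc
Cebpb: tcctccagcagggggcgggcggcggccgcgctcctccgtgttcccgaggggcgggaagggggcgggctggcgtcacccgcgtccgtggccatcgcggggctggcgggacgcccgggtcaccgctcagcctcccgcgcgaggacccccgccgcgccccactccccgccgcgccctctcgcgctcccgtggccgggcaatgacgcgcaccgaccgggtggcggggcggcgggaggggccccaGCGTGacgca
Cebpg: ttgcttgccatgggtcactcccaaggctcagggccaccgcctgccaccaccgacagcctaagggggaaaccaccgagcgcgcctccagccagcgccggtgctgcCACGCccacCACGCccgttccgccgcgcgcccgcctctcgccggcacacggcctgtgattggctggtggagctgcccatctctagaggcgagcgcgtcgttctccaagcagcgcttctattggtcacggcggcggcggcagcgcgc

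The core GCGTG matched once in the window of Cebpb, 10 bases before the start, and at 2 places in that of Cebpg, 146 and 137 bases before the start. The window of Cebpa held no match. Of 32536 promoter windows of the same length, 28.3% held at least 1 match. The CCAAT box, which gave the family its name, matched at 2 places in the window of Cebpg, 89 and 28 bases before the start, and not in the windows of Cebpa and Cebpb, against 33.8% of all windows. The C/EBP-like motif TTGCNNAA, searched on both strands as the others were, had no match in the 3 windows and was found in 9.57% of all windows. These matches describe letters in the windows and not sites of binding.

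Ahr itself was at 786.5 and 858.0 normalised read counts in WT DMSO, 790.7, 798.0 and 782.7 in WT FICZ, 1403.8 and 1346.4 in AHR KO DMSO, and 1442.7 and 1387.2 in AHR KO FICZ. The summed count of Ahr was therefore higher, and not lower, in the libraries labelled AHR KO. Its log2 difference was 0.74 ± 0.07 under DMSO (SE, limma, adjusted p = 0.000194) and 0.84 ± 0.06 under FICZ (SE, limma, adjusted p = 1.61e-05). A count per gene does not show which exons are lost, so the label stands here for what the submitters gave. Cyp1a1, the classical target gene of AHR, was at 5.84 and 0.00 in WT DMSO, 6987.5 to 7958.2 in WT FICZ, 0.00 and 2.93 in AHR KO DMSO, and 100.3 and 138.8 in AHR KO FICZ. It was thus far lower in AHR KO than in WT under FICZ (-5.99 ± 0.71, SE, adjusted p = 0.000262), but it also rose with FICZ within AHR KO (5.91 ± 0.78, SE, adjusted p = 0.00209, a size that depends on the pseudocount since DMSO is near 0). The libraries labelled AHR KO therefore still responded to FICZ at this gene, and complete loss of the receptor was not shown in these data. The libraries summed to between 23177058 and 25033827 normalised counts. The 9 epithelial markers, Epcam, Cdh1 and the keratins among them, summed to 332555.2 to 378233.4 in all libraries. The leukocyte markers Ptprc, Adgre1 and Lyz2 and the fibroblast marker Lum were at 0 in every library. The 10 leukocyte markers summed to 30.49 to 43.28 in WT and 77.16 to 84.30 in AHR KO, mostly through S100a9, and the 7 fibroblast markers to 57.47 to 110.9 in WT and 19.37 to 39.13 in AHR KO, almost all from Pdgfrb. The 4 adipocyte markers summed to at most 35.37, with Adipoq and Lep at 0. The part of other cells in the results below was not tested, and in bulk samples fewer cells of a type and less RNA per cell cannot be told apart.

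Per kb of exon, Cebpg had the highest level in the untreated state and Cebpa the next. In WT DMSO the level was 352 ± 11.9 normalised counts per kb for Cebpg, 236 ± 12.7 for Cebpa, 132 ± 13.4 for Cebpb and 105 ± 4.34 for Cebpd (SD, n = 2 each). In AHR KO DMSO the order was the same, with 325 ± 7.96, 214 ± 9.44, 185 ± 16.8 and 85.4 ± 1.08 (SD, n = 2 each). The neighbours in this order did not overlap within either group. The place of Cebpd depends on its gene model, since the shorter RefSeq model of 2260 bases would put it at 175 per kb in WT DMSO, above Cebpb at 131. In AHR KO DMSO the RefSeq models leave Cebpd at 142, below Cebpb at 183. With FICZ the order closed up. In WT FICZ the lowest and highest levels per kb were 253 and 367 for Cebpb, 276 and 298 for Cebpa, and 253 and 281 for Cebpg, so that these 3 members overlapped, while Cebpd lay between 85.1 and 91.8. In AHR KO FICZ Cebpb stood highest at 351 and 380, Cebpa (272 and 313) overlapped Cebpg (272 and 298), and Cebpd was at 131 and 154. The overlap of Cebpg with Cebpa under FICZ depends on the length used for Cebpg. Its longest transcript has 4709 bases against the 5621 bases of exon used here, and that length would put Cebpg above Cebpa.

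**Figure D1:**
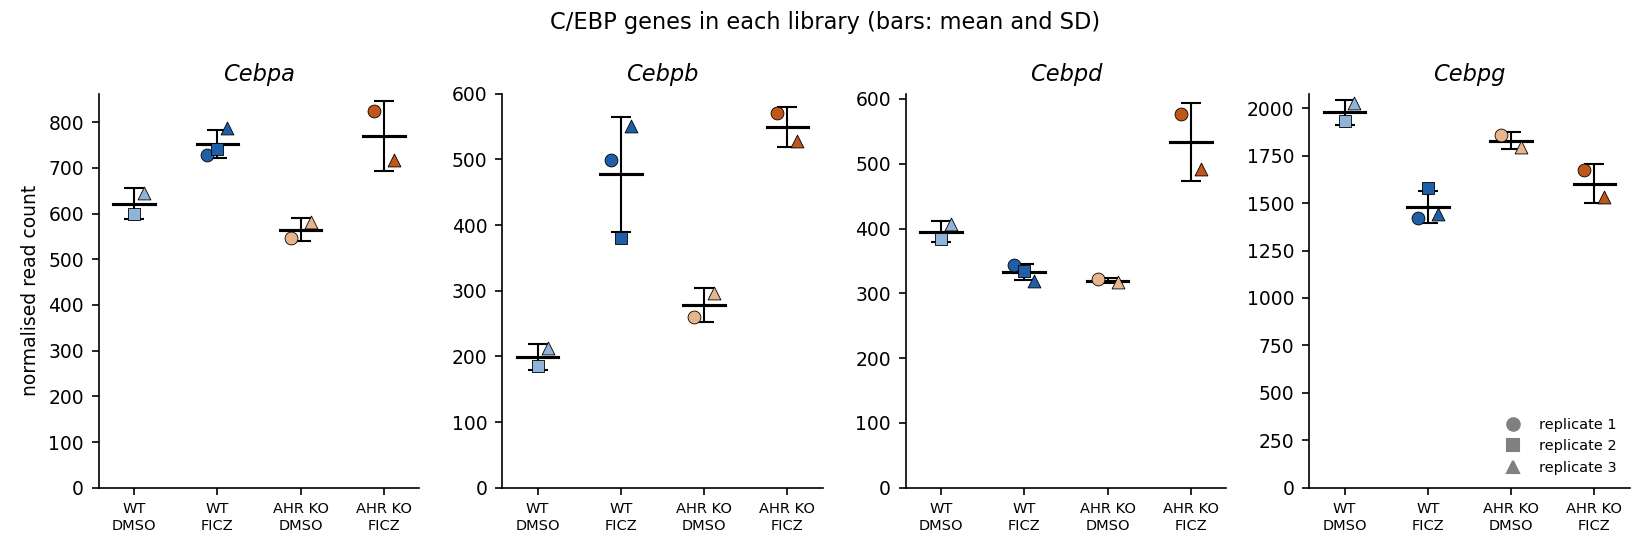
Normalised read counts of the 4 C/EBP genes (y axis, from 0, a separate scale per gene) in each library of the 4 groups (x axis). Points are libraries with a symbol per replicate number, and bars give the mean and SD. Cebpb lies between 380.5 and 571.4 in the FICZ libraries of both genotypes against 185.0 to 296.3 under DMSO, and Cebpd reaches 491.1 and 576.7 only in AHR KO FICZ.

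FICZ against DMSO in WT organoids asks how the family responds to the ligand in cells with intact Ahr. Cebpb and Cebpa rose, and Cebpg fell, so that 3 of the 3 members tested were called (limma with Benjamini-Hochberg adjustment over all genes, adjusted p under 0.05) in a comparison that called 30.8% of all genes tested. Cebpb, the cytokine-inducible activator of acute phase genes, was at 185.0 and 213.4 in WT DMSO and at 499.4, 380.5 and 551.5 in WT FICZ. Every FICZ library was above both DMSO libraries. The log2 difference was 1.24 ± 0.15 (SE, adjusted p = 0.000432), a 2.37-fold increase on the log2(value + 1) scale. Cebpa, the differentiation factor, was at 598.0 and 645.5 in WT DMSO and at 727.5, 742.1 and 786.2 in WT FICZ. Its groups did not overlap either, but its rise was small, at 0.27 ± 0.08 (SE, adjusted p = 0.0307). Cebpg, the partner without an activation domain, was at 1930.9 and 2025.5 in WT DMSO and at 1420.5, 1577.4 and 1440.9 in WT FICZ. All 3 FICZ libraries were below both DMSO libraries, with a log2 difference of -0.42 ± 0.07 (SE, adjusted p = 0.00146). Cebpa lost its call without WT DMSO replicate 2 (0.22, adjusted p = 0.191), WT DMSO replicate 3 (0.33, adjusted p = 0.063) or WT FICZ replicate 3 (0.24, adjusted p = 0.0928), while Cebpb and Cebpg kept theirs without any single library. With the replicate number as a fixed block Cebpa was not called either (0.298, adjusted p = 0.0557).

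Cebpd, the other cytokine-inducible member, was at 383.4 and 406.4 in WT DMSO and at 343.8, 335.0 and 318.9 in WT FICZ. The WT FICZ libraries were thus the lower ones, with a log2 difference of -0.25 ± 0.09 (SE), a 0.843-fold level. Cebpd was therefore the only member with the opposite sign in the 2 genotypes, which is what the family was chosen for.

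FICZ against DMSO was compared in the same way in the libraries labelled AHR KO, in which Cyp1a1 also rose. Cebpb and Cebpa again rose, so that 2 of the 3 members tested were called, where 19.7% of all genes were. Cebpb was at 260.5 and 296.3 in AHR KO DMSO and at 571.4 and 528.1 in AHR KO FICZ. Its log2 difference was 0.98 ± 0.16 (SE, adjusted p = 0.00435), a 1.97-fold increase with no overlap between groups. Cebpa was at 547.3 and 582.5 in AHR KO DMSO and at 824.7 and 716.2 in AHR KO FICZ, with a log2 difference of 0.44 ± 0.09 (SE, adjusted p = 0.00983). Cebpg was at 1861.0 and 1797.7 in AHR KO DMSO and at 1674.0 and 1530.8 in AHR KO FICZ. Its groups did not overlap, but its log2 difference of -0.19 ± 0.07 (SE) was not called (adjusted p = 0.0893). Without AHR KO DMSO replicate 1 neither Cebpa (0.40, adjusted p = 0.0916) nor Cebpb (0.89, adjusted p = 0.0539) was called, and Cebpa was also lost without AHR KO FICZ replicate 1 (0.34, adjusted p = 0.0566).

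Cebpd was at 322.7 and 316.9 in AHR KO DMSO and at 576.7 and 491.1 in AHR KO FICZ. These 2 FICZ libraries held the highest levels of Cebpd among all 9 libraries, with a log2 difference of 0.73 ± 0.10 (SE), a 1.66-fold level. Leaving out AHR KO FICZ replicate 1 or replicate 3 gave 0.62 and 0.85.

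Where a number occurs under both treatments, the ratio of FICZ to DMSO can be read within it. The replicate numbers used here are those of the sample descriptions. The sample titles number the libraries differently, and in WT they would pair other libraries. For Cebpb it was 2.06 in WT 2, 2.58 in WT 3, 2.19 in AHR KO 1 and 1.78 in AHR KO 3, so that the ratios of the genotypes overlapped. For Cebpd it was 0.874 in WT 2 and 0.785 in WT 3 against 1.79 in AHR KO 1 and 1.55 in AHR KO 3. For Cebpa it lay between 1.22 and 1.51 in all 4, and for Cebpg between 0.711 and 0.9. Each member other than Cebpd thus had ratios on the same side of 1 in both genotypes.

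The difference between the genotypes in the change with FICZ (the change in AHR KO minus that in WT) was tested for Cebpa, Cebpb and Cebpg, and none of the 3 was called by limma, where 0.447% of all genes were. At an unadjusted p under 0.05 there was 1, Cebpg. The difference was 0.17 for Cebpa (95% interval -0.10 to 0.44, adjusted p = 0.858), -0.26 for Cebpb (-0.76 to 0.23, adjusted p = 0.88) and 0.23 for Cebpg (0.01 to 0.45, adjusted p = 0.641). These intervals, from 2 or 3 libraries a group, are wide enough to include a moderate difference between the genotypes. Cyp1a1, far lower in AHR KO under FICZ, was not called in this comparison either (-5.59 ± 1.06, SE, adjusted p = 0.0677). A missing call here therefore does not show equal changes in the genotypes. For Cebpd the same quantity was 0.98 ± 0.14 (SE), as a description of what chose the family, and it was 0.86 without AHR KO FICZ replicate 1 and 1.10 without AHR KO FICZ replicate 3.

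The GC content of the transcripts moved with the change under FICZ across all genes. In WT, the median log2 difference was -0.17 for the 3412 genes under 45% GC, -0.07 from 45 to 50%, 0.08 from 50 to 55%, 0.23 from 55 to 60%, and 0.39 for the 477 genes at 60% or more. In AHR KO the same medians were -0.19, -0.07, 0.08, 0.25 and 0.41. Cebpa and Cebpb belong to the last range and Cebpg to the first, so that the direction of each of the 3 called members was also that of the genes with similar GC content. Cebpb was above the median of its range in both genotypes, Cebpa was close to it, and Cebpd was below the median of its range in WT and above it in AHR KO. The range of Cebpb had a median GC content of 61.3%, under the 67.2% of Cebpb itself. When a spline on GC content and length was subtracted in each library (the spline correction), the rise of Cebpb in WT was 0.51 ± 0.12 (SE) and still called (adjusted p = 0.0152), and the fall of Cebpg in WT was -0.25 ± 0.06 (SE) and still called (adjusted p = 0.0129), though not with the replicate block added (-0.235, adjusted p = 0.0603). Cebpb in AHR KO was then no longer called (0.29 ± 0.13, SE, adjusted p = 0.225), and Cebpa changed sign in WT (-0.20, adjusted p = 0.146) and AHR KO (-0.03, adjusted p = 0.909). The values of Cebpd hardly moved, at -0.29 ± 0.09 (SE) in WT and 0.68 ± 0.10 (SE) in AHR KO. Whether the trend is one of the libraries or of the cells was not tested.

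**Figure D2:**
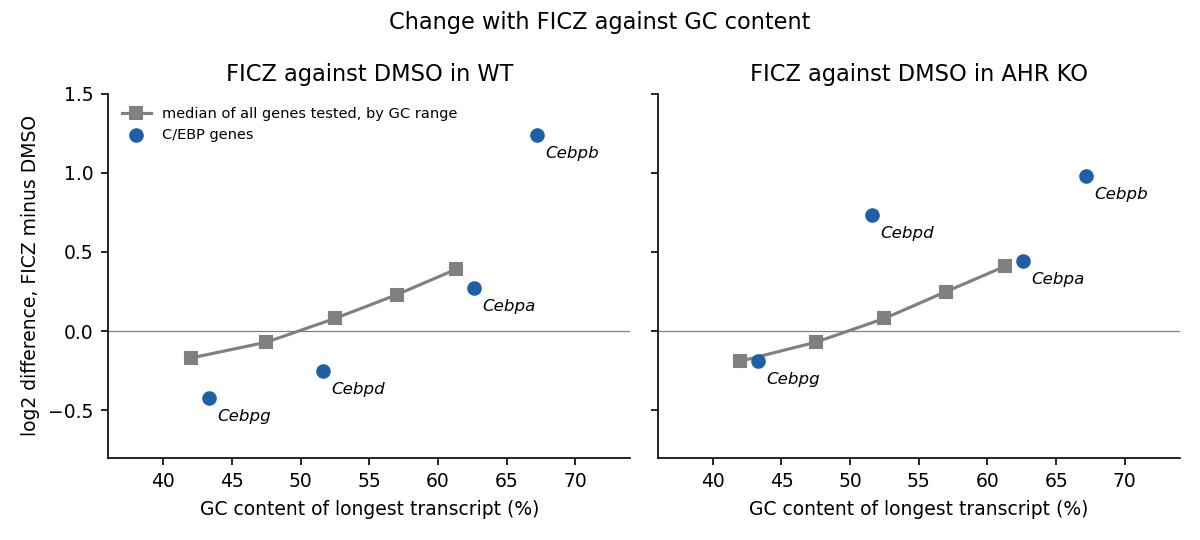
Log2 difference between FICZ and DMSO (y axis) against the GC content of the longest transcript in percent (x axis), in WT (left) and AHR KO (right). Grey squares are the medians of all genes tested in 5 ranges of GC content and blue points are the 4 C/EBP genes. Cebpb lies above the median of its range in both genotypes, and Cebpd above that of its own only in AHR KO. The last square is at 61.3% GC and Cebpb at 67.2%, so the squares do not reach the GC content of Cebpb.

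**Figure D3:**
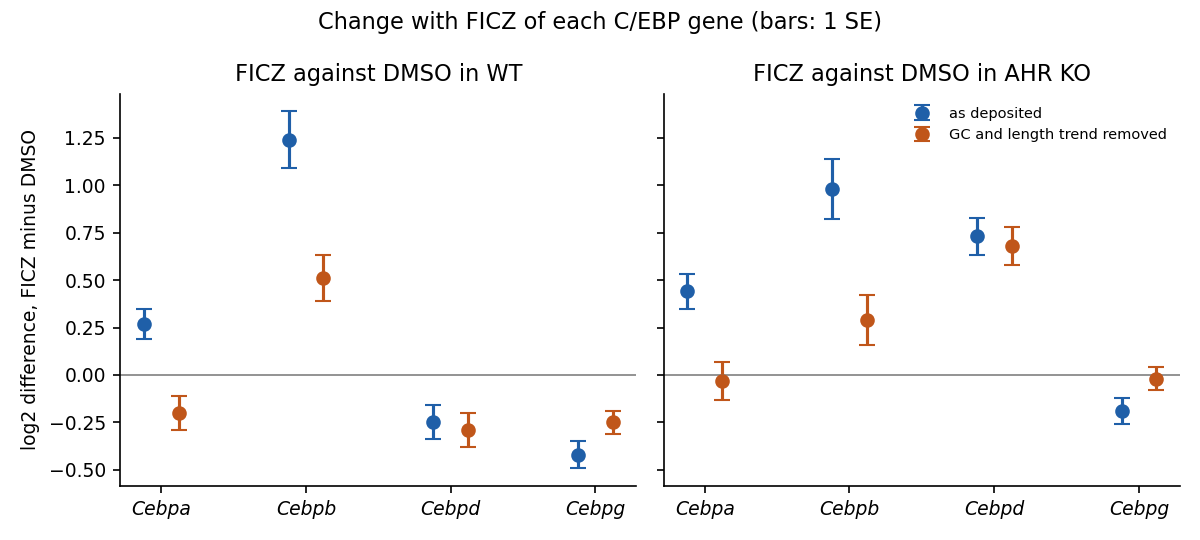
Log2 difference between FICZ and DMSO (y axis) for each C/EBP gene (x axis) in WT (left) and AHR KO (right), with bars of 1 SE. Blue points use the deposited values and orange points the spline-corrected values, under which Cebpa passes from 0.27 to -0.20 in WT while Cebpd stays at -0.25 and -0.29.

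AHR KO against WT asks whether the level of the family differs with the genotype. Under DMSO 0 of the 3 members tested were called by limma, where 9.05% of all genes were, and 1 had an unadjusted p under 0.05. This was Cebpb, with a log2 difference of 0.48 ± 0.16 (SE, adjusted p = 0.102), both AHR KO libraries being above both WT libraries. Cebpa (-0.14 ± 0.09, SE, adjusted p = 0.401) and Cebpg (-0.11 ± 0.07, SE, adjusted p = 0.386) were lower in both AHR KO libraries by amounts that did not pass. Under FICZ 0 of the 3 were called, where 20.0% of all genes were, and 0 had an unadjusted p under 0.05. The log2 differences under FICZ were 0.03 ± 0.08 (SE) for Cebpa, 0.22 ± 0.15 (SE) for Cebpb and 0.12 ± 0.07 (SE) for Cebpg, and the groups overlapped for each. Cebpb under DMSO was called after the spline correction (0.58, adjusted p = 0.0207) or without WT FICZ replicate 2 (0.48, adjusted p = 0.03).

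Cebpd was lower in AHR KO than in WT under DMSO (-0.30 ± 0.10, SE, described with no test) and higher under FICZ (0.68 ± 0.09, SE, likewise). Averaged over both treatments the log2 difference of Cebpd was 0.19 ± 0.07 (SE), which is also described with no test since it uses the libraries that chose the family. Of the other 3 members, 1 was called in that average, where 27.2% of all genes were. It was Cebpb, higher in AHR KO by 0.35 ± 0.11 (SE, adjusted p = 0.0404), a 1.28-fold level. The call of Cebpb was lost without any one of 7 of the 9 libraries (0.30 to 0.40, adjusted p = 0.0519 to 0.139) and kept without WT FICZ replicate 2 or WT FICZ replicate 3. Cebpa (-0.05, adjusted p = 0.564) and Cebpg (0.00, adjusted p = 0.989) were close to level.

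All 4 members share exon bases with a gene annotated on the opposite strand, and for 2 of them that gene was clearly expressed. Per the methods of the study the libraries were made with a stranded kit. Whether the counting used the strand is not given in the sources used here, and if it did not, reads of the paired genes cannot be told apart. Cebpb shares 312 bases with Tmem189, and Cebpd shares 562 bases with Spidr. Tmem189 also rose with FICZ in WT (0.36 ± 0.12, SE, adjusted p = 0.0429) and was lower in AHR KO than in WT under FICZ (-0.42 ± 0.12, SE, adjusted p = 0.0311). Spidr ranged only from 495.7 to 617.6 over all libraries, with a log2 difference with FICZ of -0.13 in WT and -0.14 in AHR KO, neither called. The antisense gene at Cebpa, Gm45091, reached at most 3.18 normalised counts, and the genes overlapping Cebpg at most 3.88.

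The rest of the network was examined by fixed lists of textbook genes, whose counts are to be read against the 30.8% of all genes called with FICZ in WT, 19.7% with FICZ in AHR KO, 9.05% between genotypes under DMSO and 20.0% under FICZ, with a median of all genes between -0.011 and -0.004 in each. Among 9 other C/EBP genes and dimer partners, 6 were measured well enough to be tested. Cebpe, the member that drives granulocyte maturation, was listed at 0 in every library, and Batf and Batf3 were under the filter. With FICZ, 2 of the 6 rose in WT and 1 in AHR KO, with a list median of 0.07 and 0.04 against the all-gene median of -0.01 in both. Atf5, a stress-responsive leucine zipper factor, was at 765.6 to 802.2 in WT DMSO, 927.3 to 1146.4 in WT FICZ, 772.8 to 818.5 in AHR KO DMSO and 1177.2 to 1351.1 in AHR KO FICZ. It rose in WT (0.41 ± 0.10, SE, adjusted p = 0.00959) and AHR KO (0.66 ± 0.10, SE, adjusted p = 0.00352), and neither rise was called after the spline correction (-0.00 and 0.26), nor was the WT rise without WT DMSO replicate 2 (0.38, adjusted p = 0.0733). Batf2, an interferon-inducible partner of AP-1 factors, rose with FICZ in WT from 76.57 to 89.34 up to 129.1 to 205.3 (1.06 ± 0.21, SE, adjusted p = 0.00502). That rise was not called with the replicate block and the spline correction together (0.75, adjusted p = 0.0829). Batf2 was lower in AHR KO under DMSO, at 40.66 and 40.77 (-1.0 ± 0.24, SE, adjusted p = 0.0257), a call lost under 5 of 18 alternatives, namely without any one of the WT DMSO or AHR KO DMSO libraries (-0.89 to -1.11, adjusted p = 0.0731 to 0.153) and with no filter on low values (adjusted p = 0.0553). It was also lower in AHR KO under FICZ, at 50.42 and 54.75 (-1.70 ± 0.21, SE, adjusted p = 0.000379), and kept that call under all 18 alternatives. Ddit3 and Atf4, partners of C/EBP proteins in the stress response, were not called in any of the comparisons.

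Cytokine signalling through gp130 and STAT3 is the classical route that induces Cebpb and Cebpd, and all 12 genes of that list were tested. With FICZ 4 rose and 1 fell in WT, and 2 rose and 1 fell in AHR KO, of 12 each, beside 30.8% and 19.7% of all genes, with list medians of 0.03 and 0.13 beside -0.01 for all genes. Leaving out each library in turn gave 4 to 5 called in WT and 1 to 3 in AHR KO. After the spline correction Nfkbia (0.16), Tyk2 (0.23) and Jak1 (-0.28), the genes called in AHR KO, were not called there. Il6st, which encodes the shared receptor subunit gp130, rose with FICZ in WT from 3496.1 and 3519.4 to 4735.1 to 4950.5 (0.47 ± 0.05, SE, adjusted p = 0.000264) and was not called in AHR KO (0.10 ± 0.05, SE, adjusted p = 0.239). The difference between those changes was -0.38 and was not called (adjusted p = 0.0759). Jak2, a kinase bound to gp130, fell with FICZ in WT (-0.43 ± 0.06, SE, adjusted p = 0.000872).

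Between genotypes, 2 genes of this list were higher and 1 lower in AHR KO under DMSO, and 3 were higher and 2 lower under FICZ. Leaving out each library in turn gave 1 to 3 called under DMSO and 4 to 6 under FICZ. The lower gene under DMSO, Jak2, lost its call without any one of the WT DMSO or AHR KO DMSO libraries (-0.24 to -0.32, adjusted p = 0.0717 to 0.175). Osmr, the receptor subunit for oncostatin M, was at 88.88 to 118.7 in the 5 WT libraries and at 274.1 to 331.6 in the 4 AHR KO libraries. It was higher in AHR KO under DMSO (1.54 ± 0.18, SE, adjusted p = 0.000676) and FICZ (1.61 ± 0.16, SE, adjusted p = 8.43e-05), and kept both calls under all 19 alternatives. Lifr, the receptor subunit for leukaemia inhibitory factor, was at 184.2 to 244.7 in WT and 356.9 to 474.1 in AHR KO. It was higher in AHR KO under DMSO (0.83 ± 0.17, SE, adjusted p = 0.0133) and FICZ (1.19 ± 0.15, SE, adjusted p = 0.00042). The call under DMSO was lost without WT DMSO replicate 2 (0.77, adjusted p = 0.0848), WT DMSO replicate 3 (0.88, adjusted p = 0.0508) or AHR KO DMSO replicate 1 (0.62, adjusted p = 0.112). Socs3, a feedback inhibitor that STAT3 induces, was at 174.9 and 176.8 in WT DMSO, 143.6 to 156.3 in WT FICZ, 176.8 and 216.5 in AHR KO DMSO, and 245.6 and 261.5 in AHR KO FICZ. It was higher in AHR KO than in WT under FICZ (0.77 ± 0.12, SE, adjusted p = 0.00169), and its difference between genotypes in the change with FICZ was 0.62 and not called (adjusted p = 0.345). Stat3 was not called in any comparison and lay between 2285.9 and 2663.3.

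**Figure D4:**
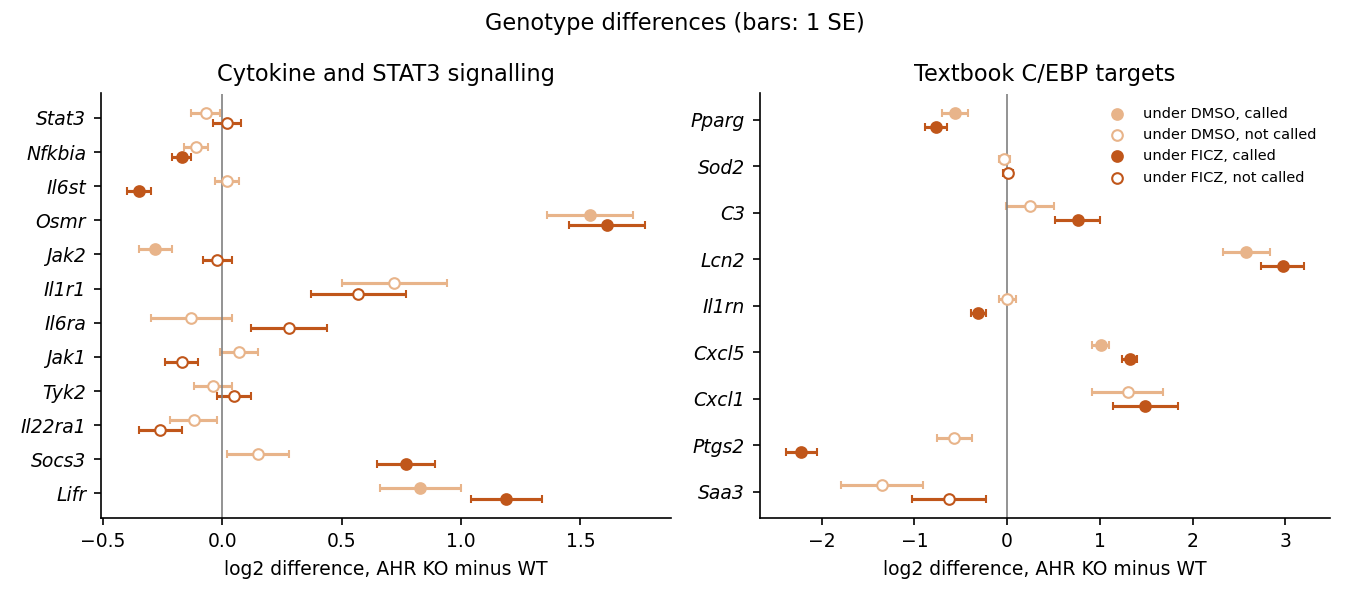
Log2 difference between AHR KO and WT (x axis) for the genes of cytokine and STAT3 signalling (left) and the textbook C/EBP targets (right) that were tested, under DMSO (light) and FICZ (dark), with bars of 1 SE and filled points where called. Osmr (1.54 and 1.61) and Lcn2 (2.58 and 2.97) lie far to the right under both treatments, and Ptgs2 (-2.22) far to the left under FICZ.

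Of 20 textbook C/EBP target genes, 9 were tested, the other 11 being under the filter, among them the liver acute phase genes Saa1, Saa2, Hp and Orm1. With FICZ 2 rose and 1 fell in WT and 0 were called by limma in AHR KO (1 at an unadjusted p under 0.05), with a list median of -0.05 in both genotypes. The 3 of 9 called in WT lie close to the 30.8% of all genes. Between genotypes 2 were higher and 1 lower in AHR KO under DMSO, and 4 were higher and 3 lower under FICZ, of 9 each, beside 9.05% and 20.0% of all genes called, with list medians of 0.00 and 0.01. Lcn2, an iron-sequestering antimicrobial protein, was at 14.65 to 20.50 in the WT libraries and at 90.07 and 109.3 in AHR KO DMSO and 146.0 and 152.7 in AHR KO FICZ. It was higher in AHR KO under DMSO (2.58 ± 0.25, SE, adjusted p = 0.000271) and FICZ (2.97 ± 0.23, SE, adjusted p = 1.91e-05). Cxcl5, a chemokine that attracts neutrophils, was at 1296.2 to 1836.3 in WT and 3330.4 to 3724.9 in AHR KO (1.01 ± 0.09 under DMSO, SE, adjusted p = 0.00013). Pparg, the nuclear receptor that C/EBP proteins induce in fat cells, was lower in AHR KO under DMSO (-0.56 ± 0.14, SE, adjusted p = 0.0308), a call lost with no filter on low values (-0.56, adjusted p = 0.0549) and without WT DMSO replicate 2 (-0.36, adjusted p = 0.204), AHR KO DMSO replicate 1 (-0.67, adjusted p = 0.067) or AHR KO DMSO replicate 3 (-0.45, adjusted p = 0.222). The direction of these targets was thus mixed.

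Ptgs2, the inducible cyclooxygenase, was the 1 gene of the 6 lists whose change with FICZ was called as different between the genotypes. It was at 147.8 and 221.6 in WT DMSO and 463.7 to 491.3 in WT FICZ, and at 119.0 and 125.0 in AHR KO DMSO and 89.24 and 114.0 in AHR KO FICZ. It rose with FICZ in WT (1.39 ± 0.17, SE, adjusted p = 0.000476) and was not called in AHR KO (-0.27 ± 0.19, SE, adjusted p = 0.342). The change in AHR KO minus that in WT was -1.66 ± 0.25 (SE, adjusted p = 0.0206), lost without AHR KO DMSO replicate 1 (-1.62, adjusted p = 0.128), AHR KO DMSO replicate 3 (-1.69, adjusted p = 0.106), WT FICZ replicate 1 (-1.68, adjusted p = 0.0566), WT FICZ replicate 3 (-1.67, adjusted p = 0.066) or AHR KO FICZ replicate 1 (-1.48, adjusted p = 0.0625).

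The glucocorticoid receptor is another inducer of Cebpd and Cebpb, and 7 of 8 genes of its list were tested. With FICZ 2 rose and 1 fell in WT, and 0 were called by limma in AHR KO (3 at an unadjusted p under 0.05), beside 30.8% and 19.7% of all genes. The 3 calls in WT became 0 to 4 under the alternatives, with 0 left without WT DMSO replicate 3 and 1 without WT DMSO replicate 2, WT FICZ replicate 1 or WT FICZ replicate 3. Under FICZ 2 were lower in AHR KO, namely Nr3c1, the receptor itself (-0.23 ± 0.06, SE, adjusted p = 0.015, but 0.132 without AHR KO FICZ replicate 3), and Klf9, one of its targets (-0.54 ± 0.07, SE, adjusted p = 0.000688). Klf9 was at 1099.8 to 1238.7 in WT FICZ and 784.9 to 852.1 in AHR KO FICZ, with no overlap.

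Of 8 genes that control C/EBP protein, 2 fell with FICZ in WT and 1 in AHR KO, beside 30.8% and 19.7% of all genes called. The 2 in WT were Fbxw7 and Cop1. Leaving out each library in turn gave 0 to 2 in WT and 0 to 1 in AHR KO. Fbxw7 in WT was not called without WT DMSO replicate 2 (-0.27, adjusted p = 0.104) or WT DMSO replicate 3 (-0.31, adjusted p = 0.0634). It was also not called with the fixed replicate block (-0.28, adjusted p = 0.0655) or after the spline correction (-0.18, adjusted p = 0.123). Cop1, a ubiquitin ligase that degrades C/EBPα and C/EBPβ together with tribbles proteins, fell in WT (-0.29 ± 0.06, SE, adjusted p = 0.00426) and AHR KO (-0.27 ± 0.06, SE, adjusted p = 0.016), and neither fall was called after the spline correction (-0.11 and -0.06). It was also not called in WT without WT DMSO replicate 2 (-0.23, adjusted p = 0.0552), nor in AHR KO without AHR KO DMSO replicate 1 (-0.28, adjusted p = 0.0934), AHR KO DMSO replicate 3 (-0.26, adjusted p = 0.0806) or AHR KO FICZ replicate 3 (-0.21, adjusted p = 0.0943). Trib1, the tribbles adaptor for C/EBPα, was the 1 gene lower in AHR KO under DMSO and under FICZ. It was at 2023.1 to 2282.8 in WT and 1720.2 to 1914.5 in AHR KO, and averaged over treatments its log2 difference was -0.29 ± 0.04 (SE, adjusted p = 0.00096), kept under all 18 alternatives. The call under DMSO (-0.30) was lost without WT DMSO replicate 2 (-0.22, adjusted p = 0.149), AHR KO DMSO replicate 1 (-0.31, adjusted p = 0.0883) or AHR KO DMSO replicate 3 (-0.29, adjusted p = 0.127), and that under FICZ (-0.28) without AHR KO FICZ replicate 3 (-0.23, adjusted p = 0.0843).

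All 16 ATF4 target genes, which C/EBPγ and ATF4 are known to drive together under amino acid stress, were tested. With FICZ 4 rose and 1 fell in WT, and 3 rose in AHR KO, of 16 each, close to the 30.8% and 19.7% of all genes, with list medians of 0.07 and 0.03. Leaving out each library in turn gave 3 to 6 called in WT and 1 to 3 in AHR KO. After the spline correction Ddit4 (0.12), Shmt2 (0.04) and Atf5 (0.26), the 3 that rose in AHR KO, were not called there. Under DMSO 1 was lower in AHR KO, and under FICZ 2 were higher and 1 lower. Nupr1, a stress-induced chromatin protein, fell with FICZ in WT from 483.7 and 518.8 to 262.2 to 286.1 (-0.89 ± 0.12, SE, adjusted p = 0.000788). Atf5, described above, is also in this list.

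By correlation of log2 values over the 9 libraries among 10587 protein-coding genes with a mean of 50 or more, each member was set beside the genes of most similar pattern, as a description. Cebpa was nearest to Thoc6 (Pearson r = 0.977), Ret, Nckipsd, Gaa and Hcn2, and Cebpb to Tex264 (r = 0.979), H2afj, Foxk1, Fzd5 and Tkt. Cebpg was nearest to Arhgef38 (r = 0.982), Zfp143, Mtpap, Wdr76 and Rnf20. The GC content of these neighbours was 51.4 to 65.4% for Cebpa, 52.7 to 60.8% for Cebpb and 39.3 to 47.9% for Cebpg. Cebpd had weaker neighbours, Plrg1 (r = 0.928), Frmd4a (r = 0.869), Gpam (r = 0.857), Nptx2 (r = 0.852) and Foxk2 (r = 0.842). Of these, Nptx2 had the widest range on the log2 scale. Its group means were 493.4 in WT DMSO, 377.8 in WT FICZ, 474.2 in AHR KO DMSO and 663.7 in AHR KO FICZ, whereas those of Plrg1 moved only between 1292 and 1430.

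**Figure D5:**
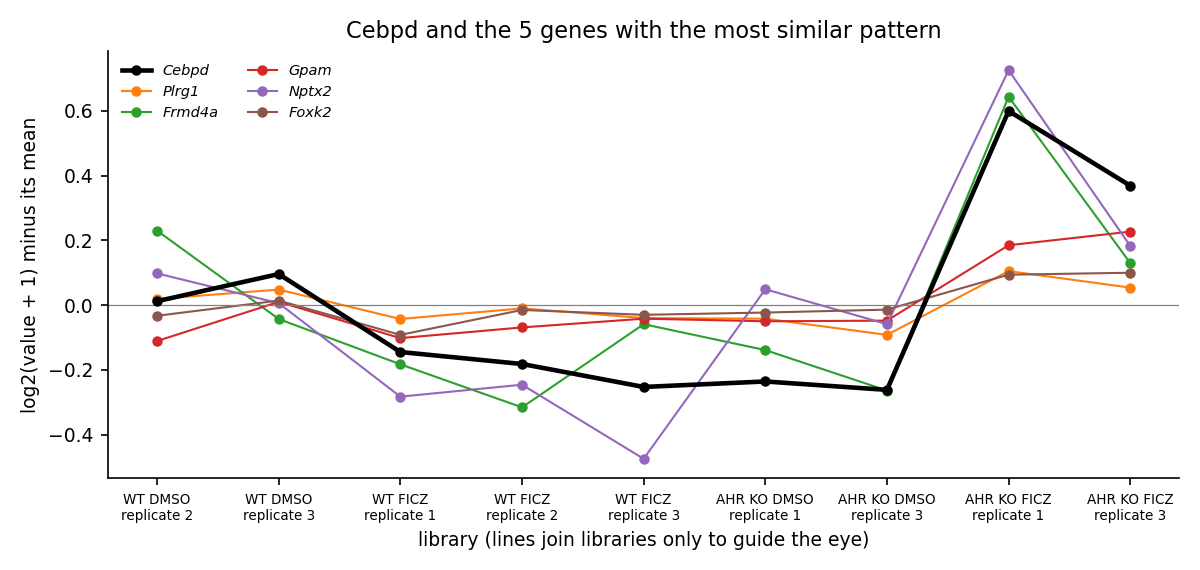
Log2(value + 1) minus its mean over the 9 libraries (y axis) in each library (x axis) for Cebpd (black) and the 5 genes of most similar pattern. The 2 AHR KO FICZ libraries are the highest for Cebpd, while Plrg1 and Foxk2 vary over a smaller range and Frmd4a and Nptx2 are far higher in AHR KO FICZ replicate 1 than in replicate 3.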

How the data were processed

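RNA-seq of 9 organoid libraries was analysed. The authors deposited 1 table of normalised read counts, a signal with decimals and no negative values. Per the submitters' processing notes STAR 2.5.2a, RSEM 1.2.31, DESeq2 1.16.1 and GRCm38 were used, while the methods of the study name another counter. The name of the table refers to RSEM, the sources do not otherwise say which of these made it, and its values did not give back whole reads, so no count model was run and the depth in reads is unknown. Replicates are biological per the methods, although the labels do not say so.

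Symbols, positions and GC content came from GENCODE M21 on GRCm38 (48435 identifiers, 99.3%, matched). Values were taken as log2(value + 1), genes with a mean of 10 or more (12741) were kept, and limma 3.58.1 in R 4.3.3 (lmFit, eBayes with trend) was fitted to all 9 libraries with 1 mean per group. Tests were two-sided, adjusted by Benjamini-Hochberg over all genes tested and called under 0.05. Python 3.11.15, pandas 2.3.3 and scipy 1.17.1 made the tables. The fit was tested on simulated data. The members and lists were chosen with earlier results of these data known. Named were the members, Ahr, and in each list and comparison at most 3 called genes of largest difference with a mean of 50 or more. Cyp1a1, Tmem189, Spidr, Cebpe, Ddit3, Atf4, Stat3 and the markers are named besides, as checks or as genes that were not called. Alternatives were a pseudocount of 0.1 or 10, no filter or a mean of 100, TMM or quantile scaling, robust eBayes, a fit restricted to the 2 groups of a comparison (not for the difference of the changes or the average over treatments), a replicate block, removal of a spline (5 df) on GC content and length, and leaving out each library.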

Additional observations from a re-analysis of the deposited data

Results flagged for a closer look

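Cebpd stood out because every library of one genotype moved against the other. Both AHR KO FICZ libraries (576.7 and 491.1) were above both AHR KO DMSO libraries (322.7 and 316.9), while WT FICZ (318.9 to 343.8) lay wholly below WT DMSO (383.4 and 406.4), with a difference between the changes of 0.98 on the log2 scale. This is the pattern for which the family was chosen, and the difference was not tested here. Ptgs2, a textbook C/EBP target, differed between the genotypes in the opposite direction, with a change in AHR KO minus that in WT of -1.66 (limma, adjusted p = 0.0206). This call was lost under 6 of 20 alternatives, 5 of them the removal of a single library (adjusted p = 0.0566 to 0.128) and the other the replicate block with the GC and length spline (adjusted p = 0.0671).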

How the results depend on the processing

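Of 354 values of Cebpa, Cebpb and Cebpg under alternatives, 323 kept their direction and their side of the threshold, results that were not called included. The calls with FICZ in WT were kept under 15 (Cebpa), 21 (Cebpb) and 20 (Cebpg) of 21 alternatives. Those with FICZ in AHR KO were kept under 17 (Cebpa) and 18 (Cebpb) of 21. That of Cebpb averaged over treatments was kept under 10 of 18. With the GC and length trend removed, 0 members were called in AHR KO with FICZ in place of 2 (Cebpa -0.029 and Cebpb 0.294), and 1 in AHR KO against WT under DMSO in place of 0 (Cebpb). In WT with FICZ Cebpa reversed to -0.202, Cebpg averaged over treatments to -0.019 and Atf5 in WT to -0.004. The counts of all genes called fell from 3928 to 2336 in WT and from 2509 to 670 in AHR KO. With no filter on low values, 0 members were called in the average over treatments in place of 1. Leaving out each library in turn gave 2 to 3 members called in WT, 0 to 2 in AHR KO, 0 to 1 in AHR KO against WT under DMSO and 0 to 1 averaged over treatments. Cebpd then ranged from 0.617 to 0.849 in AHR KO and from 0.864 to 1.096 for the difference of the changes, Cebpa in AHR KO against WT under FICZ from -0.069 to 0.134, and Cebpg averaged over treatments from -0.031 to 0.033. All genes called then ranged from 1993 to 4135 in WT, 419 to 2957 in AHR KO, 389 to 1473 and 1324 to 3089 between genotypes under DMSO and FICZ, and 23 to 78 for the difference of the changes. The cause of these shifts was not tested.

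The main fit did not use the replicate number, although the descriptions give the same number under both treatments. The correlations of deviations from the group means were 0.042 (WT 2), 0.050 (WT 3) and 0.035 (AHR KO, both numbers). They cannot decide whether the number is a pairing, since in a group of 2 libraries the deviations mirror each other. In AHR KO both numbers thus give 1 value, and libraries of unlike number give it with the opposite sign (-0.035). With the number as a fixed replicate block, 3138 genes were called in WT, 2417 in AHR KO and 52 for the difference of the changes, and Cebpa in WT was not called (0.298, adjusted p = 0.0557). As a random effect, the replicate block gave 4104, 2748 and 60 genes, and Cebpa in WT was called (0.276, adjusted p = 0.0267). With the block and the GC and length trend removed together, 1632 genes were called in WT and 466 in AHR KO, 1 member (Cebpb) was called in WT and 0 in AHR KO, Cebpg in WT was not called (-0.235, adjusted p = 0.0603), and Cebpa was at -0.155 in WT and -0.029 in AHR KO. The depth in reads is unknown, and the 2 or 3 libraries a group limit the precision.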
